A study of Mus musculus with 419 samples.

Results

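Sfmbt2 encodes a Polycomb-related protein with MBT repeats and was examined here as 1 gene of the 48167 annotated genes with a row in the tables, through its 7 transcript rows of 117762. It was chosen by its measured allele noise, which was higher than in other genes of like level, so that noise and the allele shares behind it are given as a description, with no test. The data come from 419 single cells of F1-21.6, a female embryonic stem cell line from a cross of the strains 129Sv and Cast/EiJ, which holds a chromosome set from strain 129 and another from CAST, so that strain variants in a read tell its allele. The cells were in G1, were grown without feeder cells on laminin-511 in serum with leukemia inhibitory factor, and were read by RamDA-seq, a full-length total RNA method for single cells. All cells belong to 1 group with no treatment, 1 line and no named replicate cultures, so they count as 1 sample. Spreads are given over the 5 sequencing lanes, which hold 80 to 88 cells each and may differ for technical reasons. The labels do not say which strain was the mother.

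Sfmbt2 binds methylated histone tails through its MBT repeats and belongs to the mammalian relatives of a fly Polycomb complex that is brought to DNA by YY1-type factors. In mouse embryos it is known as an imprinted gene of the extraembryonic lineage: trophoblast transcribes it from the paternal allele, and placental growth needs it. An intron of the gene holds a large cluster of repeated microRNA genes, which are made from the same primary transcript.

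The gene lies on the plus strand of chromosome 2 (chr2:10370510-10595253, mm10) and its 7 annotated transcripts begin at either of a pair of start regions. Transcripts of the upstream start number 3 and all of them end early, before the microRNA cluster. Transcripts of the downstream start number 4, and of these only a pair of long coding transcripts runs to the end of the gene. RefSeq places the start sites 1985 bases apart. The promoters are shown because the annotation sorts the gene's transcripts by these starts. Each line holds 250 bases before and 50 bases after the RefSeq start site (GRCm38.p6, plus strand), with CG dinucleotides, the sites of DNA methylation, in capitals.
Upstream start, chr2:10370201-10370500: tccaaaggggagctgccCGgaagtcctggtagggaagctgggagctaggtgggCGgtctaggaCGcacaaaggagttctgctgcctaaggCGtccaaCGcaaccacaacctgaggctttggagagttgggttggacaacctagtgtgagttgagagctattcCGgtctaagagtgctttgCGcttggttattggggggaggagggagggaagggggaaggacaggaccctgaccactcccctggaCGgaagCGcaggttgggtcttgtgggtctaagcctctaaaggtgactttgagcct
Downstream start, chr2:10372186-10372485: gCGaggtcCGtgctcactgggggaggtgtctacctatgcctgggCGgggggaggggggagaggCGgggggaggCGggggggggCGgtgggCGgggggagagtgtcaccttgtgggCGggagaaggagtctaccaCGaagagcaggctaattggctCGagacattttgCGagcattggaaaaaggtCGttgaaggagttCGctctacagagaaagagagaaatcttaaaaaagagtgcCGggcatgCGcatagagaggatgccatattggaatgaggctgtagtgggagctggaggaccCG

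The motif CG, which reads the same on both strands, occurred 9 times in the upstream and 16 times in the downstream window. Of 32851 RefSeq promoters of this length, 94.6% hold at least 1 CG, 45.8% hold at least as many as the upstream window and 33.0% at least as many as the downstream window. These counts describe the letters only. DNA methylation was not measured.

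Nearly all of the signal came from the long transcripts of the downstream start. The transcript ENSMUST00000041105 (7874 bases), called the main transcript here, held 73.3% of the gene's value over all cells, and ENSMUST00000116594 (7821 bases), called the second long transcript, held 23.1%. Per length, the mean level was 46.3 scaled units per kb and cell in the main transcript, 14.7 in the second long transcript and 7.03 in ENSMUST00000114861, the strongest transcript of the upstream start. The 3 upstream-start transcripts together held 3.57% of the gene's value. The short transcripts ENSMUST00000114864 and ENSMUST00000145398 of the downstream start were above 0 in only 8 and 15 cells. A value here is an allele's estimated read count as scaled by the authors, and not a number of molecules. Of the sequence of the main transcript, 0% recurred in transcripts of other genes (runs of 50 bases), while 98.0% of that of the second long transcript is shared with the main transcript, so reads could be divided between these transcripts only at few places.

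**Figure D1:**
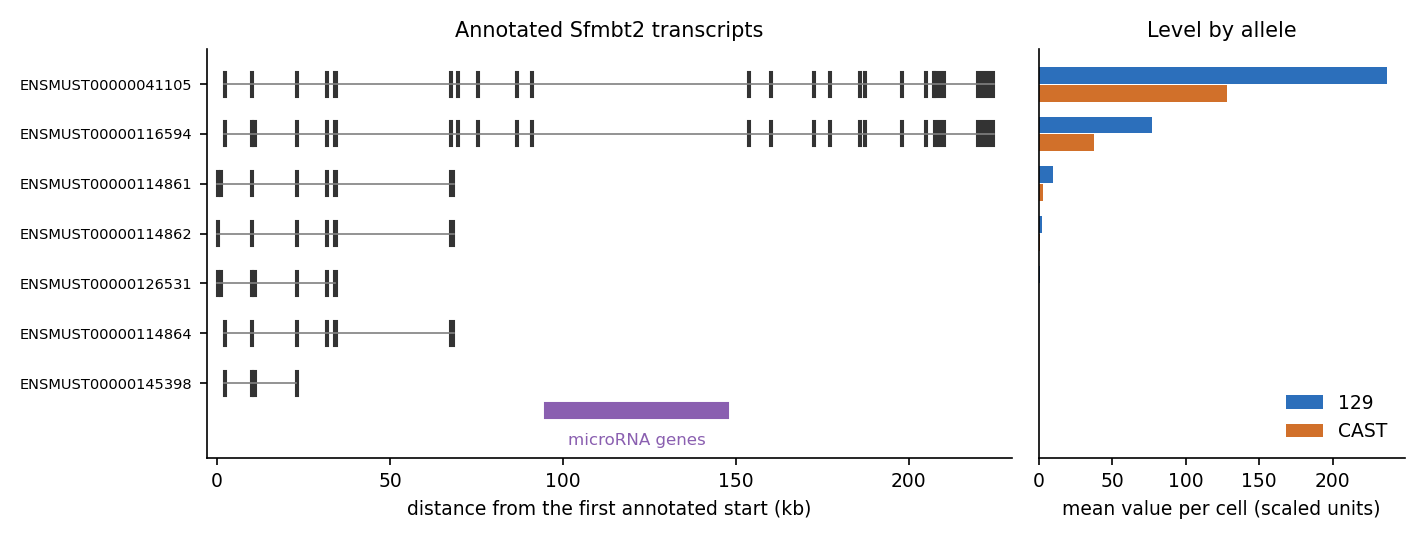
Exons (black boxes) of the 7 annotated Sfmbt2 transcripts against distance from the first annotated start in kb, with the microRNA genes in purple (left), and the mean value per cell of each transcript from the 129 and the CAST allele in scaled units (right). The main (top) and second long transcripts hold nearly all of the value, and the 129 bar is the longer in both.

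The main transcript was seen in almost every cell. Its value over both alleles ranged from 0 to 3333 with a median of 249, and 4 of the 419 cells had none. The 129 value ranged from 0 to 1496 with a median of 117, and the CAST value from 0 to 1837 with a median of 33. The CAST allele was thus the lower of the alleles in the typical cell yet reached the highest value in a single cell. The 4 highest cells held 6.22% of the main transcript's sum over both alleles, and the 42 highest held 33.8%. The CAST sum was held by fewer cells, with 58.9% in the 42 cells highest in CAST, against 38.6% for 129. Among the 4 cells highest over both alleles, the 129 share lay between 38.5% and 56.6%: both alleles were strong there. This share is the 129 value as a percentage of both. Ranking cells on the sum of the alleles favours cells in which both are strong.

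Pooled over cells, 65.0% ± 8.08 (SD over 5 lanes) of the main transcript's value came from the 129 allele. The lanes gave 57.4%, 69.3%, 76.7%, 65.8% and 58.0%, each above an equal split. Mean CAST levels varied more between lanes, from 79.8 to 168 per cell, than mean 129 levels, from 212 to 263. Lane 4 had both the highest 129 and the lowest CAST mean.

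Most single cells were read mainly from 1 allele, and the cells differed in which allele it was. Of the cells with a value, 216 (52.0%, exact binomial 95% interval 47.1% to 56.9%, counting error only) were at or above 80% 129. No more than 20% came from 129 in 76 cells (18.3%, interval 14.7% to 22.4%). The remaining 123 cells (29.6%, interval 25.3% to 34.3%) lay between. Both groups of cells read mainly from 1 allele were present in every lane, with 44.8% to 63.4% of cells on the 129 side and 13.4% to 22.5% on the CAST side. In steps of 10 percentage points, the outermost on the 129 side held 173 cells and that on the CAST side 62, while none of the 6 steps from 20% to 80% held more than 31. Between 40% and 60% there were 34 cells (8.19%).

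**Figure D2:**
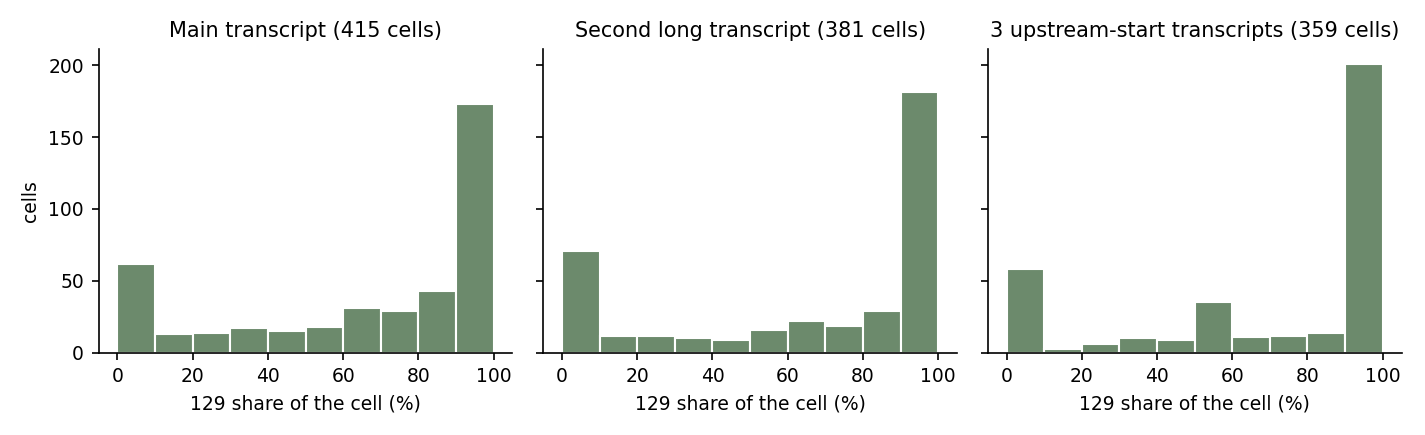
Number of cells (vertical axis) by the 129 share of the cell in percent (horizontal axis, steps of 10) for the main transcript, for the second long transcript and for the sum of the 3 transcripts of the upstream start. In each panel the outermost steps stand above the middle, and the step at 90% to 100% is the highest, with 173 cells for the main transcript; the upstream-start panel also rises at 50% to 60%.

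This shape was not confined to cells with few reads. Among the 300 cells with a value of at least 100, 164 (54.7%) read 80% or more from 129 and 57 (19.0%) read 20% or less. Over all cells with a value, the median value was 297 on the 129 side, 265.5 on the CAST side and 182 in the cells between. In those with at least 100 it was 421, 392 and 360. Cells reading mainly 1 allele thus did not hold less Sfmbt2 in the median than cells reading both. Ordered by level, 33.3% of the 42 highest cells lay between 20% and 80%, 19.3% of the next 83, 28.0% of the next 175 and 38.3% of the other 115. Depth in reads is unknown, so the precision of 1 cell's share cannot be given.

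In strict terms, with the other allele at 0, single-allele cells were fewer. The 129 allele alone was seen in 32 cells, the CAST allele alone in 26 and both in 357, so 14.0% of cells with a value (interval 10.8% to 17.7%) had 1 allele only. This share depends on the limit: with up to 5% allowed from the other allele it was 31.1%. The sides were not alike in this respect. On the CAST side, among cells with a value of at least 100, the 129 allele was at 0 in 20 of 57 cells and its median part of the cell's value was 1.28%. On the 129 side, the CAST allele was at 0 in 8 of 164 cells, its median part was 6.03% (quartiles 4.26% and 8.52%), and it followed the 129 value from cell to cell (Spearman rho 0.70 over these 164 cells, against 0.12 on the CAST side). The CAST traces in cells read from 129 thus scaled with the 129 signal. In the upstream-start transcripts, among cells with at least 20, the lesser allele was at 0 in 85.3% of cells on the 129 side and in 80.0% on the CAST side. In the second long transcript the CAST part on the 129 side was smaller, 2.17% in the median. The part of allele assignment in these traces was not tested, and cells with such a trace are counted as having both alleles.

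**Figure D3:**
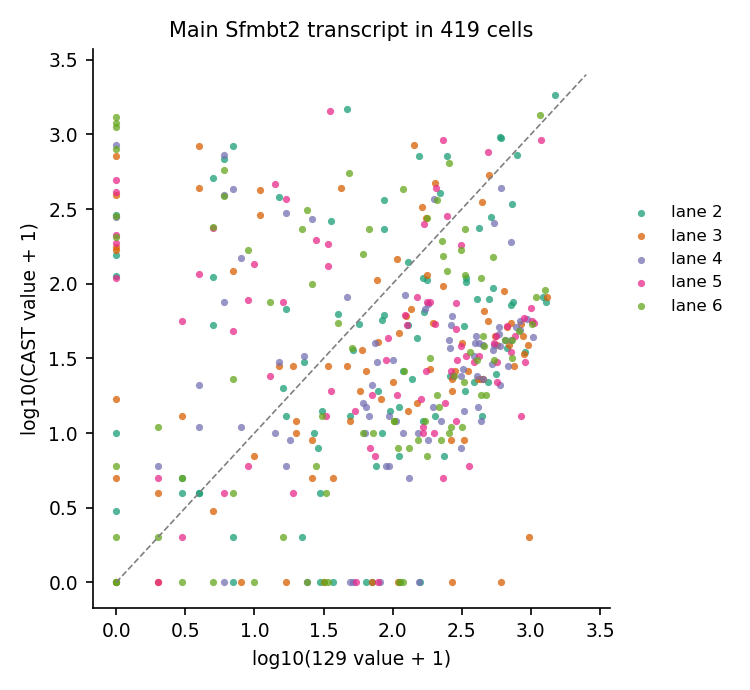
CAST value against 129 value of the main transcript in each of the 419 cells, both as log10(value + 1), with points coloured by sequencing lane and a dashed line where the alleles are equal. Cells gather near the vertical axis and in a band below the line; in that band the CAST value rises with the 129 value, and few cells lie on the line.

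Over all cells, the values of the alleles were only weakly related in the main transcript. The Spearman rho of the 129 and CAST values was 0.15 over 419 cells, with lane values from -0.04 to 0.33, and 0.01 with all rows of the gene summed. The CAST trace on the 129 side, which rose with the 129 value, enters the 0.15, and its part was not tested. These cells share library preparation and scaling. A 129 value of at least 100 was present in 227 cells and a CAST value of at least 100 in 107. Both were present in 47 cells, where the product of these frequencies gives 58.0, and neither in 132, where it gives 143. At a limit of 20 the departure was in the other direction, with neither allele in 48 cells against a product of 39. The limit of 20 cannot show whether the alleles were present separately. On the 129 side, in cells with at least 100, the CAST trace had a median of 25 and so can pass it. The main transcript's 129 value had a rho of -0.24 with the CAST value of the upstream-start transcripts and -0.18 with that of the second long transcript. Its CAST value had 0.06 and 0.05 with their 129 values.

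Other transcripts of the gene repeated the allele of the main transcript in the same cell. In the 377 cells with a value for both, the 129 shares of the second long transcript and the main transcript had a rho of 0.89, with 0.82 to 0.93 in single lanes. Of 74 cells no higher than 20% 129 by the main transcript, 69 were so by the second and 1 was at 80% or more. Since these transcripts share nearly all their sequence, this mainly repeats one reading. Of the transcripts of the upstream start, the coding ones, ENSMUST00000114861 and ENSMUST00000114862, share 32.3% and 33.3% of their sequence with the main transcript, and the noncoding one, ENSMUST00000126531, shares 70.8%. Only 0.397%, 2.39% and 0% of their sequence is found in no other transcript, and the coding ones have their long last exon in common with ENSMUST00000114864 of the downstream start. Their values are therefore a reading of the early-ending transcripts and not of the upstream start by itself.

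Summed, the upstream-start transcripts had allele shares that went with those of the main transcript. In 283 cells with at least 5 in both, their 129 share and that of the main transcript had a rho of 0.74 (0.63 to 0.83 in single lanes). Of 160 cells with 80% or more from 129 by the main transcript, 148 were so by the upstream-start transcripts and 3 had 20% or less. Of 50 cells with 20% or less, 41 were so by both and 1 was on the opposite side. Most of these cells thus lay on the same side by both readings, which share part of their sequence. Whether both starts use the same allele was not tested. The pooled 129 share was 73.1% for the upstream-start and 65.4% for the downstream-start transcripts, and within the former it was 75.6% for ENSMUST00000114861 and 65.9% for ENSMUST00000114862. Over all cells, the level of ENSMUST00000114861 had a rho of 0.69 with that of the main transcript, and that of ENSMUST00000114862 a rho of -0.11.

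The chosen measure set Sfmbt2 apart as follows. Intrinsic noise is the mean squared difference between the alleles after each is divided by its mean over cells, divided by 2, while shared noise is how far the scaled alleles rise and fall together (their mean product, less 1). Sfmbt2 had an intrinsic noise of 2.46 and a shared noise of 0.10, against medians of 0.71 and -0.03 over 6031 genes with at least 5 per cell from each allele. On a log2 scale, its intrinsic noise lay 4.49 above that of the genes nearest in mean. Among the 2365 genes with at least 20 per allele it was the highest, followed by Lrp2, an endocytic receptor, with 3.83. Among all 6031 genes it was not the highest: Slc25a20, a mitochondrial carnitine carrier with under 20 per allele, had 4.90. The label of highest allele noise therefore holds from 20 per allele upwards.

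The other noisy genes mostly held more of their value in single cells. In Acta2, a smooth muscle actin, 75.4% of the gene's sum lay in its 4 highest cells, and in Thbs1, a matrix protein, 49.5%. For the imprinted RNA H19 this part was 42.0%, for the splicing factor gene Cwc22 23.9%, for Tagln, an actin-binding protein, 29.9%, and for Lrp2 20.6%. In Sfmbt2 it was 6.22%, in the nuclear RNA Neat1 7.60% and in the imprinted RNA Meg3 4.33%. Of the 11 genes with the highest noise for their level, these last had the least in single cells, with median values over cells of 249, 239 and 521.

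Genes matched on level had far fewer cells read mainly from 1 allele. Levels of different genes are compared here only to match the size of their values, without regard to length. The 5 genes just below (Aff4, Tfrc, Actn4, Mcm6 and Rps3) and the 5 just above (Dstn, Slc7a5, Utp20, Ncl and Mthfd1) had from 347 to 373 per cell. In them, 0.955% to 24.1% of cells were at or beyond 20% and 80% 129, with a median of 3.35%, against 70.4% in Sfmbt2. Mthfd1, a folate enzyme on chromosome 12 with a pooled 129 share of 30.9%, was the highest of them. Dstn, an actin-severing protein, had nearly the same pooled share as Sfmbt2, 65.6%, and 10.7% of such cells. A like share in the pool thus came mostly from cells between the limits in Dstn and mostly from cells reading mainly 1 allele in Sfmbt2.

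At least 50% of cells at or beyond these limits was seen in 25.1% of the 6031 genes, since genes at low level scatter widely, and in 3 (1.03%) of the genes with at least 100 per allele. The latter were Sfmbt2 (70.4%), the pseudogene Rpsa-ps10 (82.1%, with an intrinsic noise of 0.03 and 17.2% from 129 in the pool) and Meg3 (66.0%, with 18.6% from 129). By the smaller of its sides Sfmbt2 was first among these genes, with 18.3% of cells, followed by Neat1 with 15.7%, Hspa5, an endoplasmic reticulum chaperone, with 14.8%, and Atxn10 with 11.9%, and the median over them was 0.72%. As allele noise chose the gene, these orders are descriptions.

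**Figure D4:**
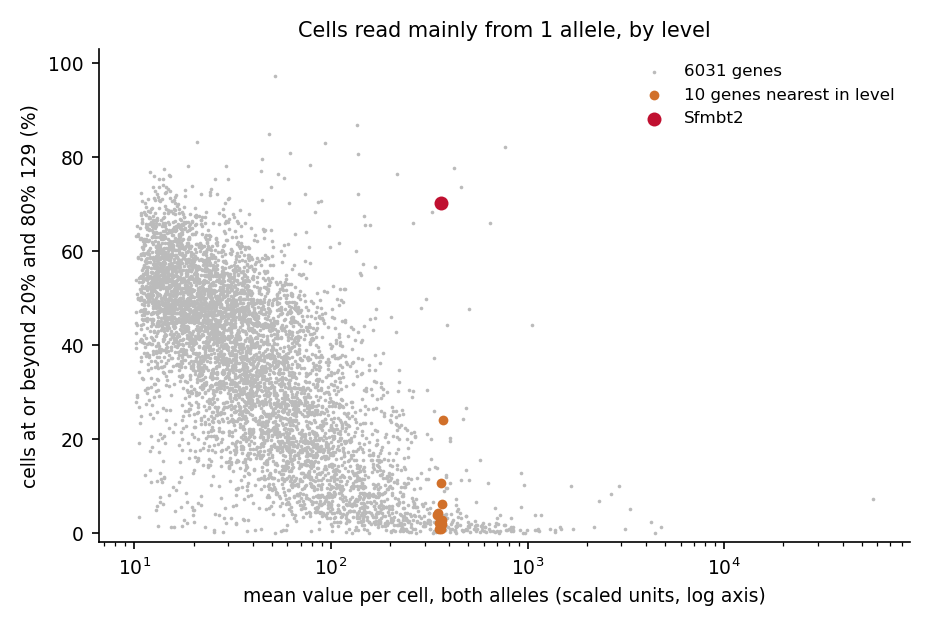
Percentage of cells at or beyond 20% and 80% 129 (vertical axis) against mean value per cell over both alleles in scaled units (horizontal log axis) for 6031 genes, each a grey point. Sfmbt2 (red) stands at 70.4%, while the 10 genes nearest in level (orange) lie between 0.955% and 24.1%.

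The allele of Sfmbt2 was not that of the chromosome around it. The pooled 129 share of the 29 measured genes within 5 Mb on either side had a rho of 0.05 with that of Sfmbt2 over the cells with a value. For the 833 other measured genes of chromosome 2 it was 0.06. Over the 19 autosomes rho ranged from -0.06 to 0.10, so chromosome 2 did not stand out. In 2 cells, nearly all of chromosome 2 was read from CAST (5.10% and 7.96% 129), and there Sfmbt2 was at 0% and 13.8%. Apart from these, 290 cells were at or beyond the limits for Sfmbt2, and all but 1 of them had a chromosome 2 share between 40% and 60%. Both copies of chromosome 2 were thus read about alike in nearly all cells that read mainly 1 allele of Sfmbt2.

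Near neighbours were also compared with Sfmbt2 gene by gene. Atp5c1, a subunit of ATP synthase 290 kb before the gene, had a 129 share of 53.1% and a rho of 0.05 with the share of Sfmbt2. Taf3, a subunit of the general factor TFIID 322 kb before it, had 48.2% and -0.07. On the other side, Rbm17, a splicing factor 990 kb after the gene, had 51.6% and 0.02, and Fbh1, a DNA helicase, had 60.0% and -0.08. Over all 10 neighbours (also Usp6nl, Upf2, Dhtkd1, Gm37701, Rsu1 and Vim) rho lay between -0.08 and 0.05. None of them moved with the allele of Sfmbt2 by this measure.

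Genes inside Sfmbt2 carried part of its pattern. Intron 10 of the main transcript (chr2:10461473-10523944) holds all 119 annotated microRNA genes of the locus, of the Mir297, Mir466, Mir467 and Mir669 families and predicted relatives. Values above 0 were found for 104 of them, 7596 in sum from 129 and 7965 from CAST, in 346 cells. Their summed level followed that of the main transcript over cells (rho 0.66). Reads of unspliced host RNA and of microRNA precursors cannot be told apart in these rows, which do not count mature microRNAs.

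The microRNA rows gave more even allele shares, which cannot be read as use of both alleles. In 283 cells with at least 5, 176 lay between 40% and 60% 129 and 10 were at or beyond 20% and 80%, and the pooled share was 48.8%. Their share nevertheless rose with that of the main transcript (rho 0.49). The 129 sum followed the 129 value of the main transcript (rho 0.53) more than its CAST value (0.38), and the CAST sum followed the CAST value (0.46) more than the 129 value (0.42). The copies in the cluster resemble each other, so reads could be divided among them and between alleles, and shares of single copies are uncertain. Rows with equal sums from both alleles, such as Gm22091 (167 from each) and Gm26073 (165 from each), were kept in these sums. In the gene set, rows whose alleles held the same values were left out. How far such rows set the middle shares was not tested. Mir669a-3, with 1228 the strongest row, was at 13.9% 129, Gm24640 at 22.5% and Gm23571 at 68.8%. No mature sequence of these genes was found in the RefSeq table used here (0 of 119 matched).

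Gm13261, an annotated noncoding transcript on the minus strand (chr2:10339283-10374041), overlaps the start of Sfmbt2 by 3532 bases. It held 710 in sum in 243 cells, with 63.1% from 129. Its 129 value had a rho of 0.28 with the 129 value of the main transcript and -0.04 with the CAST value, and its CAST value 0.15 with the CAST and 0.04 with the 129 value. Nothing in the sources says whether the counting used strand, so reads of both genes cannot be told apart in the overlap.

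The level of Sfmbt2, summed over alleles, varied with a set of other genes. Of 10466 genes, 63 (0.602%) had a rho of 0.3 or more with it over the 419 cells and 55 (0.526%) a rho of -0.3 or less. All 63 were above 0, and all 55 below 0, in each of the 5 lanes and with the 129 value and the CAST value taken alone. As the genes were picked on the sum over all cells, these signs are largely built in. The cells share scaling and preparation, so rho is a description. The number of transcripts above 0 in the cell had a rho of -0.02 with Sfmbt2, and the cell's total 0.13.

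The genes that varied most like Sfmbt2 were Lgals1, a secreted galectin (rho 0.46), Hip1, an endocytic adaptor of clathrin and actin (0.45), and Tead1, a DNA-binding partner of the YAP coactivator (0.42). Then came Fgfr2, a fibroblast growth factor receptor (0.40), the kinase Akt1 (0.39), Anln, an actin-binding protein of the cleavage furrow (0.39), and Cers2, a ceramide synthase (0.39). Myh9, a nonmuscle myosin heavy chain (0.38), Ddb1, an adaptor of ubiquitin ligases (0.38), and Prtg, a receptor of the embryonic ectoderm (0.38), completed the 10. These 10 also varied with each other, with a median pairwise rho of 0.45 (0.29 to 0.61).

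Lgals1 had a median value of 18.2 and was above 0 in 416 cells. Its rho with Sfmbt2 was between 0.38 and 0.50 in single lanes, 0.34 with the 129 value and 0.33 with the CAST value. Tead1 had a median of 221 and lane values of rho from 0.32 to 0.52. Fgfr2 was above 0 in only 236 cells, with a median of 3.22, and its lane values ran from 0.22 to 0.52.

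At the other end, levels were lower in cells with more Sfmbt2. Soga3 had a rho of -0.46, Akr1b3, an aldose reductase, -0.42, and Kdm6b, which removes the histone methylation set by Polycomb, -0.40. Pou5f1, the core pluripotency factor, had -0.39 and Jam2, a junction adhesion molecule, -0.39. Pou5f1 had a median of 189 and its lane values ran from -0.52 to -0.26. All of these were negative with the CAST value alone as well, from -0.25 to -0.20.

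**Figure D5:**
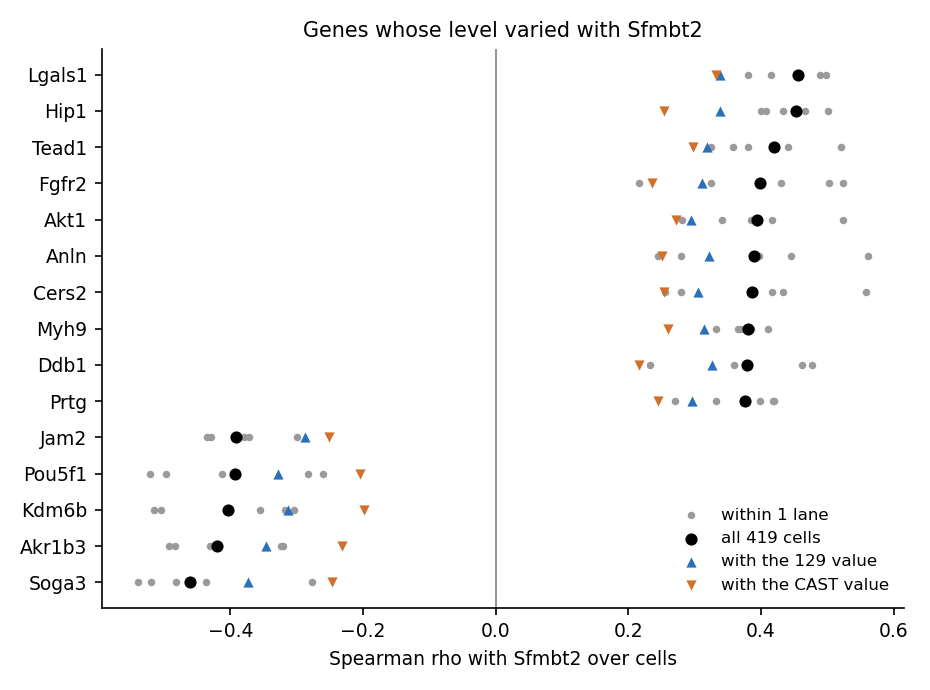
Spearman rho with the level of Sfmbt2 (horizontal axis) for the 10 genes with the highest and the 5 with the lowest rho: black, over all 419 cells; grey, within each sequencing lane; blue and orange triangles, with the 129 and CAST values of Sfmbt2 alone. Grey points lie on the same side of 0 as the black point in each gene.

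Trophoblast and pluripotency genes lay on opposite sides of 0. Of the trophoblast list, 8 of 13 genes were measured and all 8 had a rho above 0, where 51.0% of all genes did. Their median was 0.13 and 0 reached 0.3, led by Tfap2c (0.29) and Krt18 (0.22), with Eomes at 0.01. With the rows of each gene summed, Eomes was at -0.04 and Tfap2c at 0.32. The summed level of the list ranged from 12.7 to 13541 per cell with a median of 115. It had a rho of 0.40 with Sfmbt2 (0.36 without the keratins Krt8 and Krt18). Tfap2c and Tead4 had the highest medians in the list, 39 and 34 with rows summed. Those of Cdx2, Elf5, Gata3, Hand1, Gcm1, Tpbpa and Prl3d1 were 0. The defining markers were low: Cdx2 was above 0 in 45 cells, Elf5 in 85, and Tpbpa and Prl3d1 in 1 cell each. Their part in the variation of Sfmbt2 was not tested.

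All 10 pluripotency genes were measured and all 10 had a rho below 0, with a median of -0.16. Pou5f1 was the only one at -0.3 or less. Zfp42 had -0.21, Tbx3 -0.23, Nanog -0.15 and Sox2 -0.05. As a check of the cell label, Pou5f1 was above 0 in 419 cells, Esrrb and Sox2 in 410 each, Nanog in 409 and Tbx3 in 385. The summed list ranged from 24.5 to 6486 with a median of 3069, so single cells held little of it. Of the primitive endoderm list, 5 of 10 genes were measured, with 1 at -0.3 or less, the laminin gene Lama1 (-0.33), and a median of -0.05.

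While its level went with other genes, the allele that Sfmbt2 was read from did not. Among the 10466 genes, 0 had a level with a rho of 0.3 or more, in either direction, with the 129 share of Sfmbt2, and the strongest was 0.21. The share had a rho of 0.05 with the level of Sfmbt2 itself. When the difference between the mean-scaled alleles was compared gene by gene, 0 of 6030 other genes reached 0.2 in either direction. Med22, a Mediator subunit, was highest with 0.19, followed by Usp36 and Rad21 with 0.16, and Atxn7l3b was lowest with -0.19, with Greb1l at -0.19 and Rras2 at -0.18. In sparse values such weak relations are no finding.

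Pooled shares of imprinted genes were only weakly related to the allele of Sfmbt2. The pooled 129 share of 15 measured paternally expressed genes had a rho of 0.12 with that of Sfmbt2, where the autosomes reached 0.10. Peg10, an imprinted gene derived from a retrotransposon, weighs most in this pool, with a mean of 2907 per cell. Only 10.0% of cells were at or beyond 20% and 80% 129 in Peg10. The pool therefore says little about single members. The pooled share of Meg3 and Rian had 0.07, and the part of chromosome 12 beyond 80 Mb, where cells differ in their CAST share, 0.07. In level, Peg10 was the 1 member of 15 at 0.3 or more (0.34), and 0 were at -0.3 or less. Peg3 had 0.22, Mcts2 -0.19 and Plagl1 -0.25, and the median was 0.02 where that of all genes was 0.00. Of the 10 with noise measures, Rtl1, a neighbour of Meg3, had the highest share of cells at or beyond 20% and 80% (65.9%). Its pooled share was 18.2% 129, itself past the 20% limit, and its intrinsic noise was 0.62. Mcts2 was next (36.8%), and Kcnq1ot1 (4.77%) and Impact (3.10%) were the lowest.

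Noncanonical imprinted genes are a class in which, as in Sfmbt2, the maternal copy is silenced in early embryos through Polycomb histone methylation instead of DNA methylation. Of 8 listed, 5 had noise measures. Slc38a4, an amino acid transporter, had 65.3% of cells at or beyond the limits with a pooled share of 22.0% 129, and Epas1, a hypoxia factor, had 57.2%. Gab1, a signalling adaptor, had 25.1% and Jade1, a chromatin reader, 20.8%. The mean values of these genes, without regard to length, lie between 97.7 and 221 per cell, and lower values scatter more. In level, Sall3 had a rho of -0.36 and was the 1 of 7 measured members past -0.3, and Rbms1 had 0.30, just under the limit.

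Polycomb partners showed little relation to the level of Sfmbt2. None of the 10 measured genes reached 0.3 in either direction, with a range from -0.20 to 0.24 and a median of -0.02. Yaf2 was highest, and the ubiquitin ligase Rnf2 lowest. Yy1, the DNA-binding partner, had 0.07 and Ezh2, the Polycomb histone methyltransferase, -0.03. Among the MBT family 5 of 8 were measured, from L3mbtl2 at -0.12 to Scmh1 at 0.17. The close paralogue Sfmbt1 had a mean of 10.4 per cell and a rho of 0.04.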

How the data were processed

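Per the labels, RNA of 419 single cells was read by RamDA-seq. The authors deposited 1 table per allele with 117762 transcript rows and 1 column per cell. The deposited values are whole numbers treated here as a score: allele counts that the authors appear to have estimated, scaled to nearly common totals (698363 to 1477656 per cell over both alleles, median 925852) and rounded, so no count test was used and the depth in reads is unknown. The fixed design held no test. Per the submitters' processing notes, Bowtie 1.1.2 and mm10 were used, with no role given. How reads were assigned to alleles: not given in the sources used here.

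All columns matched a sample title. GENCODE vM21 named 116824 rows. Each gene was taken by its strongest row, for Sfmbt2 the main transcript unless stated. Genes needed a pooled value of at least 1000 and a value in at least 10% of cells, and 544 rows whose alleles held the same values (squared difference under 0.5 of the total) were left out, which left 10468 autosomal genes. Noise, levels and rho used values scaled to the mean cell total, and noise needed a mean of at least 5 per allele and a pooled share of 10% to 90%. Residuals used a window of 201 genes. Shares of cells have exact binomial 95% intervals, which cover counting error only. Genes were named by rule: all rows and overlapping genes of Sfmbt2, 5 neighbours on each side in position and in level, the 10 highest and 5 lowest by rho, 5 at each end by allele difference, the 10 highest residuals, and list members at the ends. Of the highest residuals, 1 gene is not reported here. Some named neighbours and list members are given only in a range. Members and lists were chosen with earlier results of these data known. Measures were tested on simulated data. No cell was left out and no doublet caller was run. Python 3.11.15, numpy 2.4.6, pandas 2.3.3, scipy 1.17.1 and matplotlib 3.10.9 were used.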

Additional observations from a re-analysis of the deposited data

How the results depend on the processing

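Alternatives were the rows used, minimum values, limits, scaling, the 4 highest cells and each lane left out. No paired analysis was possible because there is 1 group. A value is called moved here when it changed by more than 1 SD over lanes, or, for a count, by more than 1.5 times. By this measure the 129 share (62.3% to 67.2% with a lane left out), the intrinsic noise (2.38 to 2.61) and the rho with flanking genes (0.01 to 0.07) did not move. The rho of the alleles was 0.10 to 0.18 with a lane left out and fell from 0.15 to 0.01 with all rows summed, just under 1 SD over lanes (0.13). The rho of the 15 genes named for the highest and lowest values kept its sign. Alternatives for other genes were not run, apart from summed rows in the trophoblast list, where Eomes changed sign. The strict share of 1-allele cells was 31.1% with up to 5% allowed from the other allele and 12.7% to 15.0% with a lane left out. The share of cells between the limits was 43.4% with limits of 10% and 90% and 27.7% to 31.2% with a lane left out. With all rows summed, 107 genes had a rho of 0.3 or more and 109 a rho of -0.3 or less. With a lane left out these counts ran from 48 to 97 (97 without lane 6) and from 47 to 86 (86 without lane 4). A partial rho given the number of transcripts above 0, chosen after seeing the data, gave 66 and 58. Fewer cells widen the spread of rho, and the cause of the changed counts was not tested. Unknown depth limits the share of a single cell, most of all below a value of 20.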

Other observations

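Markers of other cell states were also measured. Of the fibroblast or feeder list, 3 of 8 genes were measured: Thy1, a surface glycoprotein, had a rho of -0.33 with Sfmbt2 and was above 0 in 258 cells, while Col1a1, a collagen chain, had 0.05 and Acta2 0.10. The summed list had a rho of -0.15, a median of 5.84 per cell and a highest cell of 11480. Of the 2-cell-like list none of 7 genes passed the filter, and its summed level had a median of 0 and a rho of -0.01. The MBT family summed had a rho of -0.16, with lane values from -0.24 to -0.08. In that sum L3mbtl2, with a mean of 207 per cell with rows summed, weighs most. The paternally expressed imprinted list summed had a rho of 0.35 (0.23 to 0.44 in single lanes), a sum in which Peg10, with a mean of 2907 per cell, weighs most.

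The 4 strongest cells of Sfmbt2, looked at after their values were seen, held both alleles. They were ranked on the sum of both alleles, which favours such cells. The highest cell held 1496 from 129 and 1837 from CAST, the next 1163 and 1349, and the others 1188 and 910, and 600 and 958. Of the 42 highest cells, 21 read 80% or more from 129 and 7 read 20% or less, so both kinds of single-allele cell were present at high level too.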
